A study of Homo sapiens with 6 samples.

Results

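The enzymes of heme synthesis and breakdown were examined through 9 genes, ALAS1, ALAS2, ALAD, UROD, CPOX, PPOX, FECH, HMOX1 and BLVRB, out of the 57150 genes in the deposited expression table. Each gene was found by its symbol, and each of the 9 had a single row in the table. By their labels, the data came from K562, a human erythroleukemia cell line, as 3 pools transfected with siRNAs that target both αCP1 and αCP2 mRNAs and 3 pools transfected with control siRNAs. Some of the control siRNAs target an unrelated mRNA, GLD-2, so part of the control pools carried a knockdown of another mRNA, and some libraries had been made for an earlier study of the laboratory. RNA was taken 72 h after transfection. The table holds a single FPKM value (fragment counts scaled to transcript length and library size) and a single estimated count per gene for each group, under the labels KD and CTRL, and these are called the KD column and the CTRL column here. The 3 pools of a group were not separated, so no spread between replicates could be given and no test was run.

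The columns are called by their labels because neither of the targeted mRNAs showed depletion in the KD column. PCBP1, which encodes αCP1, had an FPKM of 184 in the KD column and 188 in the CTRL column. PCBP2, which encodes αCP2, had an FPKM of 531 and 342, the higher value being in the KD column. For the cell pools, the paper reports depletion of the targets in both mRNA and protein, which these mRNA values do not show. U2AF2, which encodes the splicing factor U2AF65 that the study depleted in a separate experiment, had an FPKM of 13.0 in the KD column and 85.3 in the CTRL column, from 351 and 2393 counts, a log2 ratio of -2.63. The table may not hold the libraries that the labels describe, which was not tested, and no difference between the columns below is read as an effect of αCP depletion. The erythroid factors GATA1, TAL1 and KLF1 had 0 counts in both columns, although the line is labelled erythroid. Of the 14 erythroid genes examined below, 4 reached a mean FPKM of 1, among them the globin gene HBE1 at 153 and 35.4. The estimated counts summed to 13699340 and 11680567. For every single library, the paper reports more mapped read pairs than either sum, and the reason for the difference was not tested.

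Heme is iron held in a porphyrin ring, and erythroid cells make large amounts of it for hemoglobin. Its synthesis starts in mitochondria, where ALAS joins glycine and succinyl-CoA, runs through the cytosol, and returns to mitochondria, where FECH inserts iron into the finished ring. ALAS1 is the form of the first enzyme found in most cells, and ALAS2 is the erythroid form. Heme oxygenases open the ring and release iron, carbon monoxide and biliverdin, which biliverdin reductases turn into bilirubin. The αCPs themselves have a second, cytosolic role as iron chaperones that hand iron to ferritin, and αCP2 is known to bind the heme oxygenase encoded by HMOX1.

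The promoters of the members that anchor the range of levels are shown first, because the levels below differ most between them: ALAS1 and BLVRB had the highest mean FPKM, CPOX had the lowest among the detected genes, and ALAS2 had no counts. The sequences are the 250 bases before the start site in RefSeq, and an exact match of the RefSeq window gave their position in GRCh37, the build of the table. The RefSeq promoter table used here matched 8 of the 9 genes, all but HMOX1. Capitals mark the GC box (GGGCGG on either strand) in ALAS1 and BLVRB and the GATA element (AGATAA and AGATAG as well as TGATAA and TGATAG, on either strand) in ALAS2 and CPOX.
ALAS1 (chr3:52231849-52232098, plus strand): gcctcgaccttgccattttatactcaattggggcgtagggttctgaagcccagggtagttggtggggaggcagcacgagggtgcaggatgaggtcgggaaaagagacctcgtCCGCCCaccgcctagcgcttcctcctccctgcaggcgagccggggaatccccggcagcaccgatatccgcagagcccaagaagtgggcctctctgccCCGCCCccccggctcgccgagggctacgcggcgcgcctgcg
BLVRB (chr19:40971653-40971902, minus strand): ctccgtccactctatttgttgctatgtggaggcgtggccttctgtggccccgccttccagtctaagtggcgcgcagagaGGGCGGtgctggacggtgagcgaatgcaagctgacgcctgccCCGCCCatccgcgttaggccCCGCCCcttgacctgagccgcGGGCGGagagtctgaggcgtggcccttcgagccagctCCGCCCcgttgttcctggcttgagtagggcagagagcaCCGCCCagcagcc
CPOX (chr3:98312456-98312705, minus strand): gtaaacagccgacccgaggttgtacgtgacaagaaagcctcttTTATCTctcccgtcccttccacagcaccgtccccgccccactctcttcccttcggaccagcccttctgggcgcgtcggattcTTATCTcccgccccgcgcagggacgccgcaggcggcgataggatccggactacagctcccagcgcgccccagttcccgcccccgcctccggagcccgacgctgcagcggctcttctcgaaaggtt
ALAS2 (chrX:55057411-55057660, minus strand): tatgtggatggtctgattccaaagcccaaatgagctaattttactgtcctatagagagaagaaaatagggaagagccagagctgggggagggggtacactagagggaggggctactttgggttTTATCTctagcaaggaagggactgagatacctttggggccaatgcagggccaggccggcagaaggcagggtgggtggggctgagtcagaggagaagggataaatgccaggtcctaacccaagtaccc

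The BLVRB promoter held 6 GC boxes, CPOX and FECH 3 each, ALAS1 2 and UROD 1, so that CPOX, the lowest detected member, had more than ALAS1. The start regions of ALAD held 2 and 3, and those of PPOX 0 and 1. A GC box was present in 45% of all 35116 promoter windows of 300 bases. ALAS2 had no GC box, and 52.8% of its printed bases were G or C, against 67.2% in ALAS1. The GATA element, which GATA1 and related factors bind, was found once in ALAS2, at position -127 from the start, and in CPOX at positions -207 and -125. A GATA element was present in 25% of all windows. Among the other members, a GATA element was found in a second, overlapping start region of ALAD and of PPOX, and none in UROD, FECH, BLVRB or ALAS1. The core of the antioxidant response element, TGACNNNGC on either strand, was found in ALAS2 and FECH and in 13.3% of all windows, and CCAAT on either strand in ALAD, ALAS1, ALAS2 and PPOX and in 34.6% of all windows. These matches are letters in a window and were not tested as binding sites.

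A further pair of short sites lies just after the start of both ALAS genes. In ALAS1, the half-site of NRF1 (GCATGCGC), a regulator of genes for mitochondrial proteins, was found on both strands in an overlapping pair, and the half-site was present in 3.05% of all windows. In ALAS2, the start of the mRNA carries the iron-responsive element, the hairpin through which iron regulatory proteins block translation when iron is scarce. Capitals mark the half-sites in ALAS1 (chr3:52232112-52232137, GRCh37, plus strand) and the loop letters CAGTGN in ALAS2 (chrX:55057374-55057401, GRCh37, minus strand).
ALAS1 NRF1 site: cgcccaagGCGCATGCGCagcggtca
ALAS2 iron-responsive element: tcgttcgtcctCAGTGCagggcaacagg

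The first step of synthesis was represented by ALAS1 alone. Gene positions are those of GENCODE release 44 on GRCh37, the build of the table. ALAS1 (chr3:52232102-52248343) had an FPKM of 117 in the KD column, from 1723 counts, and of 73.1 in the CTRL column, from 1178 counts. These levels exceeded those of 91.6% and 88.6% of the 13741 genes whose mean FPKM reached 1. ALAS2 (chrX:55035488-55057410) had 0 counts in both columns. A count of 0 allows up to 3 counts, which is 0.219 CPM (counts scaled to the column total) in the KD column and 0.257 in the CTRL column, and no fold is given. ALAS1 mRNA stood at 126 and 101 CPM. In such bulk samples, fewer cells of a type and less RNA per cell cannot be told apart.

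The levels of the following enzymes did not run evenly along the pathway. ALAD (chr9:116148592-116163570), the cytosolic enzyme that joins the products of the first step into a pyrrole, had an FPKM of 7.65 in the KD column and 9.61 in the CTRL column. UROD (chr1:45476622-45481247), the cytosolic enzyme that trims the side chains of the first closed ring, was far more abundant, at 62.2 and 94.0. CPOX (chr3:98298290-98312492), which acts next and resides in mitochondria, was the lowest detected member in each column, at 2.76 and 4.20.

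PPOX (chr1:161135846-161147803), the mitochondrial oxidase that completes the double bonds of the ring, had an FPKM of 16.6 and 17.0. FECH (chr18:55211609-55253964), the enzyme that inserts iron, had an FPKM of 3.66 and 4.56. Per length, ALAS1 mRNA was 15.3 times as abundant as ALAD mRNA in the KD column and 7.60 times in the CTRL column, so the first and second steps stood far apart.

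Of the breakdown enzymes, HMOX1 (chr22:35776354-35790207), the inducible heme oxygenase, had an FPKM of 8.95 in the KD column and 14.9 in the CTRL column. BLVRB (chr19:40953672-40971671), a reductase of biliverdin and flavins that is abundant in red cells, had an FPKM of 114 and 85.2. The level of BLVRB was thus 12.7 times that of HMOX1 in the KD column and 5.72 times in the CTRL column. Over the 8 detected members, the highest level was 42.6 times the lowest in the KD column and 22.4 times in the CTRL column, and 6 members had an FPKM over 5 in each.

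**Figure D1:**
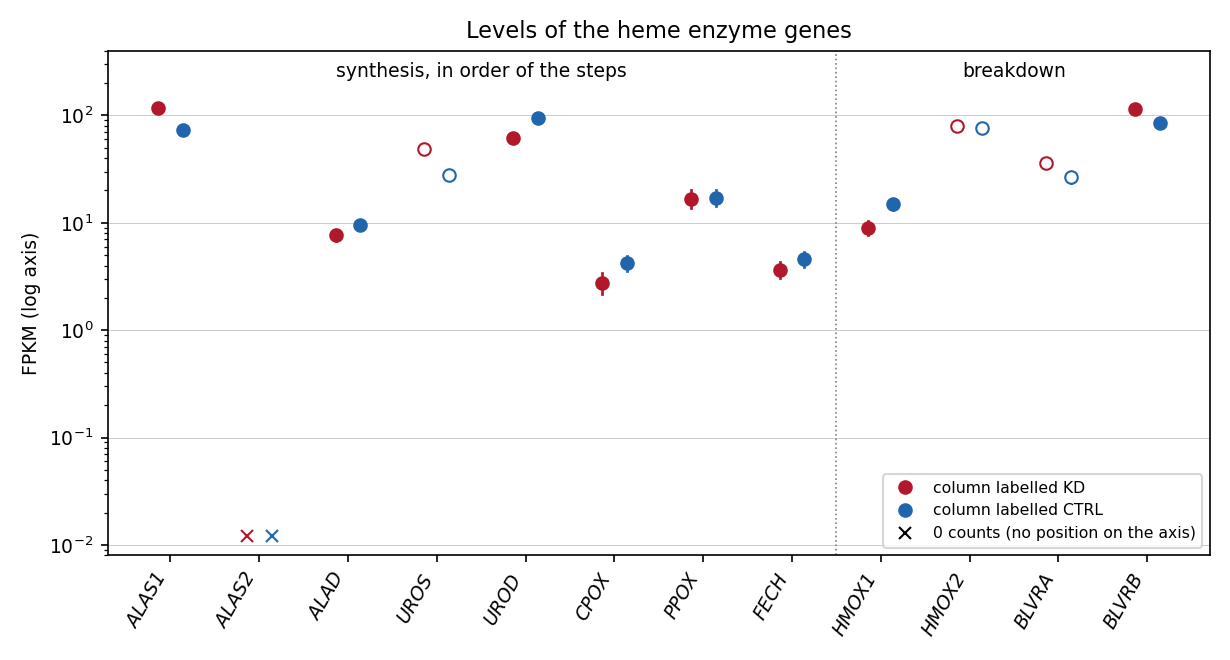
FPKM (log axis) of the enzyme genes of heme synthesis, in the order of the steps, and of heme breakdown, in the KD column (red) and the CTRL column (blue). Filled circles are the genes described here, open circles are 3 further enzymes, lines are 95% Poisson counting intervals (hidden where shorter than the symbol), and crosses mark ALAS2 at 0 counts; CPOX and FECH are the lowest of the detected genes in both columns.

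The order of the levels was read against 95% Poisson intervals of the counts, which cover counting error only, and with 3 further enzymes of the pathway included. These intervals and the binomial ones below treat the estimated counts as plain counts of fragments. How the estimated counts were scaled is not given in the sources used here, so the true counting error may differ. In the KD column, ALAS1 and BLVRB led and their intervals overlapped, at 112 to 123 and 106 to 122. In the CTRL column, UROD led at 88.4 to 99.8, its interval overlapped that of BLVRB, and ALAS1 was the fourth. HMOX1 and ALAD had overlapping intervals in the KD column but not in the CTRL column, and FECH and CPOX overlapped in both.

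The 2 columns were compared as the log2 ratio of FPKM + 1 in the KD column over that in the CTRL column, a scale that understates the change of low genes. For each gene, the ratio of its shares of the 2 column totals was also taken, with a 95% exact binomial interval that covers counting error only. The median of that share ratio over all genes was -0.20 in log2, whereas the median of the FPKM ratio was 0.01, so each share ratio below is read against -0.20.

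ALAS1 was 1.61 times as high in the KD column, with a log2 ratio of 0.68. Its share ratio was 0.32 (95% interval 0.21 to 0.43), above the median of all genes. It had the largest log2 ratio above 0 among the members, and with a trend in transcript length and GC content removed across all genes the log2 ratio was 0.62.

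ALAD and UROD had lower values in the KD column. UROD had a log2 ratio of -0.59, and its counts of 665 and 1074 gave a share ratio of -0.92 (-1.06 to -0.78). ALAD had a log2 ratio of -0.29, and its counts of 264 and 358 gave a share ratio of -0.67 (-0.90 to -0.44). Both intervals lay below the median of all genes. With the trend in length and GC content removed, the log2 ratio was -0.86 for UROD and -0.36 for ALAD. In GENCODE release 44, 9.31% of the exonic bases of UROD are shared with HECTD3 on the opposite strand, and no source used here states that the counting used strand.

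Among the 3 mitochondrial enzymes of the last steps, only CPOX had an interval below the median of all genes. CPOX had a log2 ratio of -0.47, and its 80 and 140 counts gave a share ratio of -1.04 (-1.45 to -0.63). Another protein-coding gene on the same strand shares 5.16% of the exonic bases of CPOX. FECH had a log2 ratio of -0.25, and its 140 and 164 counts gave a share ratio of -0.46 (-0.79 to -0.12), an interval that included -0.20. PPOX had a log2 ratio of -0.03, and its 115 and 133 counts gave a share ratio of -0.44 (-0.81 to -0.07), which also included it. For FECH and PPOX, a difference in count shares beyond the shift of the whole table was not detectable at this depth. With the trend in length and GC content removed, the log2 ratio was -0.36 for CPOX, 0.01 for FECH and -0.44 for PPOX. The PPOX transcript is 60.1% G and C.

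The FPKM and counts of PPOX together imply a length of 503 bases in the KD column and 671 in the CTRL column, against 2471 bases for its longest transcript in GENCODE. Over all genes whose mean FPKM reached 1, the median ratio of implied lengths, KD over CTRL, was 0.855. A shorter implied length in the KD column was thus common across the table. Counts were scaled to the column totals here, so these values are not measured transcript lengths. In the CTRL column, the implied length exceeded the longest transcript for CPOX, at 2855 against 2709 bases, and for HMOX1, at 1726 against 1697. In the KD column, the implied length was shorter than the longest transcript for every detected member. It was 780 of 2138 bases for UROD, 2793 of 7695 for FECH, 528 of 1392 for BLVRB and 1509 of 1697 for HMOX1. By counts, PPOX lay below ALAD, at 8.36 against 19.3 CPM in the KD column, while by FPKM it lay above. On the opposite strand, B4GALT3 shares 23.7% of the exonic bases of PPOX, so the reads of the pair cannot be told apart there without strand. FECHP1, a FECH pseudogene, had 0 counts in both columns.

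The 2 breakdown enzymes differed in direction. HMOX1 had a log2 ratio of -0.67, the lowest of the 8 detected members, and its 185 and 300 counts gave a share ratio of -0.93 (-1.20 to -0.66), below the median of all genes. BLVRB had a log2 ratio of 0.41, and its 822 and 566 counts gave a share ratio of 0.31 (0.15 to 0.47), above it. The HMOX1 transcript is 58.5% G and C and the BLVRB transcript 58.2%, which puts both in the highest of 4 equal bins of genes by GC content, where the median log2 ratio was 0.47. After removal of the length and GC trend, HMOX1 was at -1.02 and BLVRB at 0.08.

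**Figure D2:**
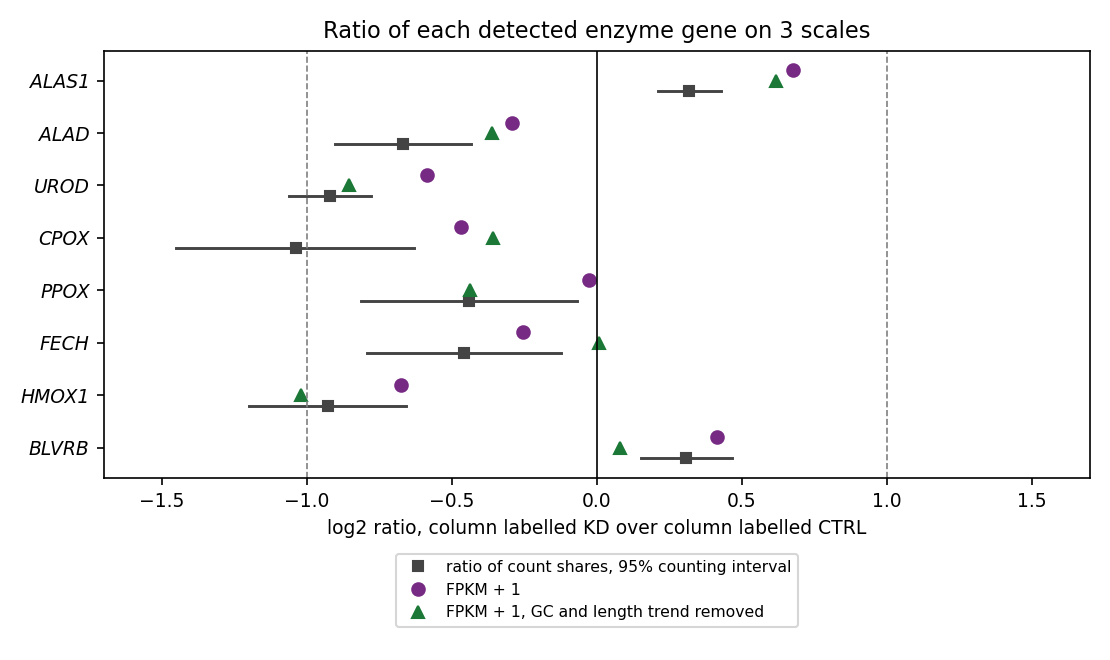
Log2 ratio of the KD column over the CTRL column for the 8 detected genes, from FPKM + 1 (circles), from FPKM + 1 after removal of the trend in length and GC content (triangles) and from count shares with their 95% exact binomial interval (squares with lines). Dashed lines mark 1 and -1. ALAS1 and BLVRB lie above 0 on each scale, and UROD, ALAD, CPOX, PPOX and HMOX1 lie below 0 on each. For count shares the median of all genes was -0.20, and the intervals of PPOX and FECH include it.

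No member passed a log2 ratio of 1 in either direction by FPKM. Over all genes whose mean FPKM reached 1, 8.51% lay at 1 or above and 3.27% at -1 or below. By count shares without a pseudocount, CPOX alone was at -1 or less, against 9.75% of the 13606 genes compared in this way, and with the trend removed HMOX1 alone was, against 3.09% of 13298 genes. Of the 8 detected members, 6 had a ratio below 0 by FPKM, where 48.9% of all genes did. From counts scaled to the column totals it was again 6, against 61.8% of all genes, and with the trend removed it was 5, against 45.2%. The median log2 ratio of the 8 was -0.27, and that of all genes was 0.01.

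A further 3 enzymes of the pathway had levels inside the range of the members. UROS, which closes the ring, had an FPKM of 48.8 in the KD column and 27.6 in the CTRL column, and its share ratio was 0.57 (0.38 to 0.77). UROS and UROD are adjacent steps, and UROS was higher and UROD lower in the KD column. HMOX2, the constitutive heme oxygenase, had 79.1 and 75.7, which was 8.84 and 5.09 times the level of HMOX1. BLVRA, the main biliverdin reductase of adult tissue, had 35.7 and 26.6. None of the 3 passed a log2 ratio of 1, and their median was 0.41.

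Of 16 genes that move heme, porphyrins or mitochondrial iron or supply the first step, 15 reached a mean FPKM of 1. Among those, 12 had a log2 ratio below 0, where 48.9% of all genes did, and 11 with the trend removed, where 45.2% did. Their median was -0.45. ABCB6, a porphyrin transporter, had the lowest log2 ratio, -0.78, at FPKM values of 19.3 and 33.9. TMEM14C, which carries a porphyrin precursor in erythroid mitochondria, had FPKM values of 222 and 367 and a log2 ratio of -0.72. SLC25A38, a mitochondrial carrier that supplies glycine to the first step, was higher, at 21.0 and 14.7.

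TSPO, an outer mitochondrial membrane protein that binds porphyrins and cholesterol, had the highest log2 ratio of all genes in these lists. Its FPKM was 251 in the KD column and 12.4 in the CTRL column, from 1716 and 102 counts. The log2 ratio was 4.23, the share ratio 3.84 (3.55 to 4.15), and the value with the trend removed 3.63. TSPO was the sole gene past a log2 ratio of 1 among the 15 that reached a mean FPKM of 1, where 8.51% of all genes were at 1 or above. ABCG2, which did not reach a mean FPKM of 1, had 3 counts in the KD column and 24 in the CTRL column. Its share ratio was -3.23 (-5.61 to -1.51). By FPKM it hardly differed, at 0.398 and 0.445, a log2 ratio of -0.05. The measures thus disagree for this gene, and no difference is read from them.

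Genes that use heme for respiration differed among themselves. COX15, which makes heme A for cytochrome oxidase, had an FPKM of 50.3 in the KD column and 22.8 in the CTRL column, a log2 ratio of 1.11. COX10, which acts one step before it, had 11.7 and 12.5. HCCS, which attaches heme to cytochrome c, had 26.1 and 42.3.

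Of 10 regulators of heme genes, 9 had a mean FPKM of at least 1, with 4 log2 ratios above 0 and 5 below. Over all genes whose mean FPKM reached 1, 48.9% lay below 0 and 8.51% at 1 or above. BACH1, the heme-sensing repressor of HMOX1, had an FPKM of 5.15 and 7.78, and NFE2L2, which encodes the activator NRF2, had 57.9 and 83.5. MAFK, a small MAF partner of both, was the sole regulator past a log2 ratio of 1, at 38.7 and 14.8, a log2 ratio of 1.32 that was 0.76 with the trend removed. EIF2AK1, the kinase that slows translation when heme is scarce, had 156 and 89.8. PPARGC1A, a coactivator that induces ALAS1 in liver, had an FPKM of 0.512 and 0.901.

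The genes that NRF2 and BACH1 control together with HMOX1 were next counted. Of 12 such genes, 9 had a log2 ratio below 0, where 48.9% of all genes did, 4 were at -1 or less, where 3.27% of all genes were, and none was at 1 or more, with a median of -0.55. TXNRD1, a thioredoxin reductase, had an FPKM of 80.6 in the KD column and 274 in the CTRL column, a log2 ratio of -1.75. SLC7A11, the cystine importer, had 0.809 and 4.50, and GCLM and GCLC, the subunits of the enzyme that starts glutathione synthesis, had 3.60 and 8.98 and 5.50 and 12.7. With the trend removed, 2 of the 4, TXNRD1 and SLC7A11, were still at -1 or less.

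NQO1, a quinone reductase of the same list, had 178 and 268. Of the ferritin genes, FTL was higher in the KD column, at 1379 against 792, and FTH1 was at 7974 and 8209, a log2 ratio of -0.04. SRXN1 has a pair of rows at 1 locus in the table, with log2 ratios of -0.61 and -0.42, and the first was used.

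**Figure D3:**
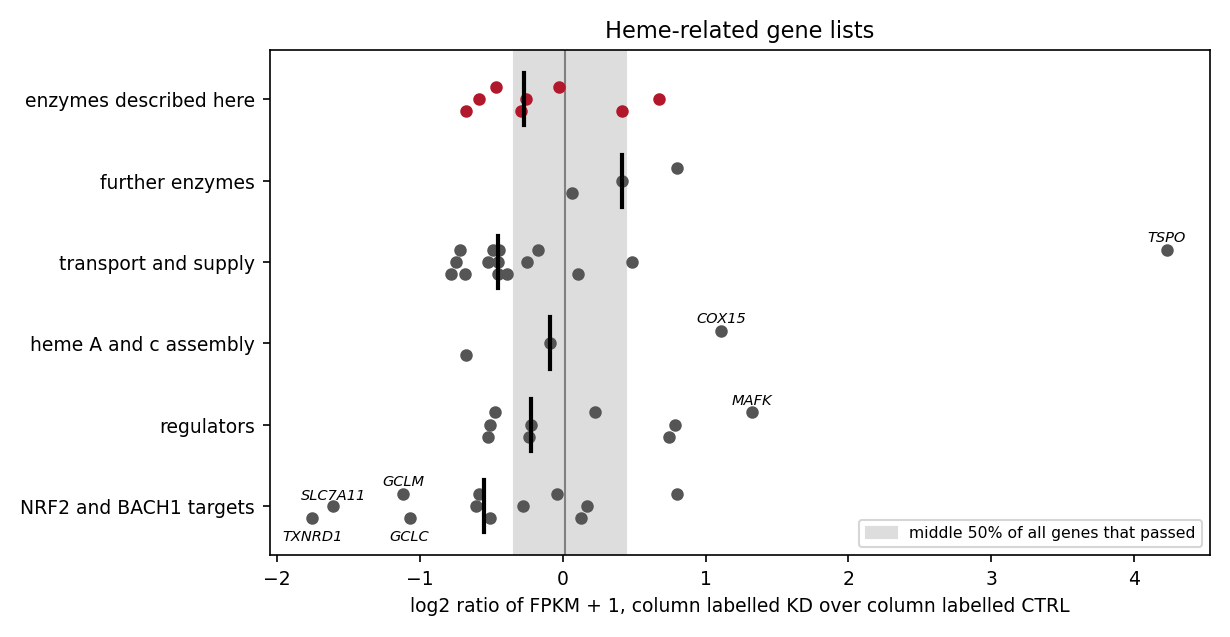
Log2 ratio of FPKM + 1, KD column over CTRL column, for the genes of 6 heme-related lists with a mean FPKM of at least 1. Each point is a gene, black bars are list medians, the grey band holds the middle 50% of all such genes (-0.34 to 0.45), the grey line is their median, and genes past 1 or -1 are named; TSPO lies at 4.23.

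The absence of ALAS2 counts went with low levels of most erythroid markers in both columns. Of 14 erythroid genes, 9 stayed under an FPKM of 1 throughout, and 5, GATA1, TAL1, KLF1, GYPB and HBZ, had 0 counts in both. EPOR, the erythropoietin receptor, had 3.55 and 5.08. HBE1, an embryonic globin gene, was the sole gene of the list over 5 in both columns, at 153 and 35.4, so the summed level of the list was 164 and 46.5. HBG2 had 4.33 and 1.63, but the globin genes are paralogs whose reads may be shared.

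Among the 8 epithelial markers, 5 exceeded an FPKM of 5 in each column, among them KRT8 at 1505 and 819 and KRT18 at 2309 and 1748, while KRT19 had 0 counts and CDH1 was under 1. Their summed level was 4426 in the KD column and 3258 in the CTRL column. Most of each sum came from the keratin genes KRT8, KRT18 and KRT7, the last at 540 and 604. EPCAM had only 3.94 and 3.26. GATA1, TAL1 and KLF1 were thus not detectable at this depth in either column of a line labelled as erythroleukemia, although HBE1 was detected. The part of cell identity in the heme enzyme levels was not tested.

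**Figure D4:**
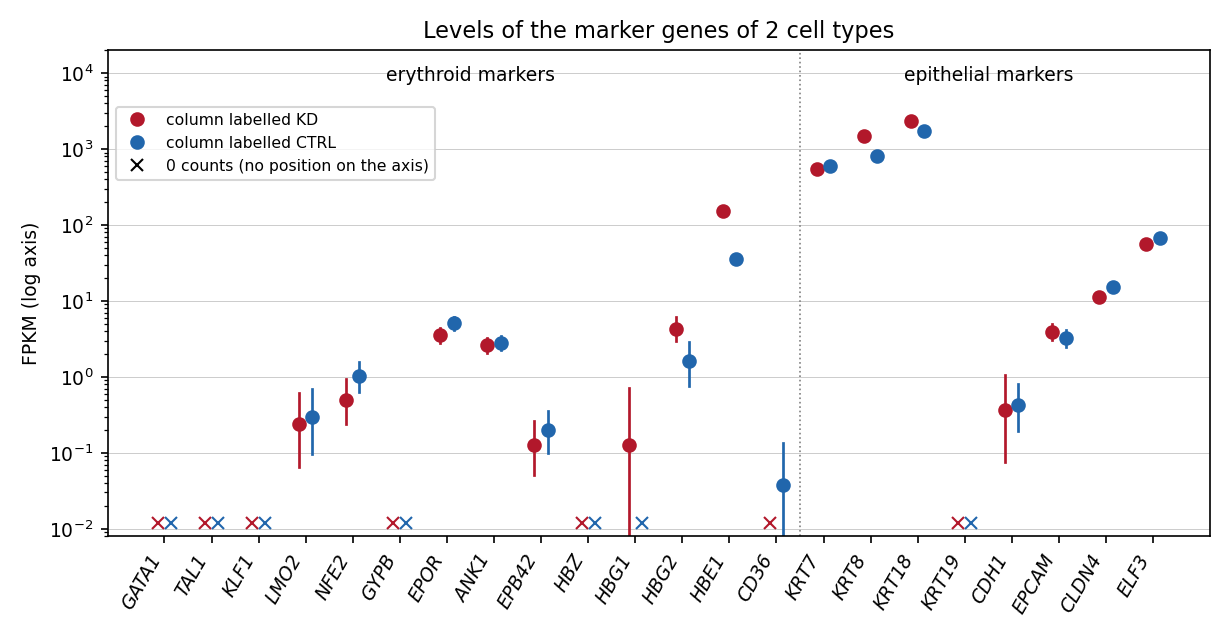
FPKM (log axis) of 14 erythroid and 8 epithelial marker genes in the KD column (red) and the CTRL column (blue), with 95% Poisson counting intervals as lines. Crosses mark 0 counts; GATA1, TAL1, KLF1, GYPB and HBZ were at 0 in both columns, and HBE1 was at 153 and 35.4.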

How the data were processed

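RNA-seq libraries were made by the authors from 3 pools of K562 cells per group with the TruSeq RNA kit and sequenced as paired 100 nt reads. Per the labels and the methods, reads were mapped with TopHat 1.4.1 to hg19 and Ensembl transcripts, and expression was computed with Cuffdiff 2.2.0. The deposited values are 1 FPKM and 1 estimated count per gene and group. The way the 3 libraries became 1 value is not given in the sources used here. The table's fold changes and p-values are the authors' own comparison and were not used.

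The members and lists were chosen with earlier results of these data known. Some genes of the lists are not reported here. Named genes are the members, the genes of the fixed lists and genes whose reads or rows bear on them. Log2 ratios used FPKM + 1 and were kept for genes whose mean FPKM reached 1. A linear model was planned only for values per library. Estimated counts were rounded for intervals. Folds were left out for genes with 3 counts or fewer in each column. GC content and length came from the longest GENCODE release 44 transcript on GRCh37, for 96.8% of these genes, and a quadratic trend in both was fitted. The functions were tested on simulated data. Intervals came from scipy 1.17.1, fits from numpy 2.4.6, tables from pandas 2.3.3 and plots from matplotlib 3.10.9, under Python 3.11.15.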

Additional observations from a re-analysis of the deposited data

How the results depend on the processing

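The ratios were recomputed with a pseudocount of 0.1, without a filter, with an FPKM over 5 in at least 1 column, centred on the median of all genes, from counts over the column totals, and after removal of the trend in length and GC content. Centred counts and count shares without a pseudocount were chosen after seeing the data. The median log2 ratio of the members, -0.27, was -0.53 from counts divided by the column totals and -0.56 from count shares without a pseudocount, where the whole table was shifted as well, and lay between -0.36 and -0.16 in the other settings. The number of members past a log2 ratio of 1 or -1, which was 0, was 1 with the trend removed and 1 from count shares without a pseudocount, and the cause was not tested. Of 54 single-gene values, 11 moved by more than the counting interval and 1 changed sign, that of FECH, which was 0.01 with the trend removed. The 8 values without a filter and the 6 with an FPKM over 5 could not move, since those settings only select genes. Centring on the median of all genes shifted each of 8 values by only 0.01. The moves were 5 of 8 from counts over the column totals, 4 of 8 with the trend removed and 2 of 8 from centred counts. With a pseudocount of 0.1 it was 0 of 8.

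No paired analysis was possible because each group has a single column, and for the same reason no library was left out. No member had several rows, so summing rows was not run for them. Depth limits CPOX, PPOX and FECH most, with 80 to 164 counts per column.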
